A study of Mus musculus with 2 samples.

Results

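Growth factors and growth-factor-like mediators were followed through the leukocytes of the mouse adrenal gland. The genes were Igf1, Vegfa, Vegfb, Pdgfb, Hbegf, Grn, Osm and Adm, 8 of the 32285 genes counted, chosen by name as secreted factors with known roles in vessels, stroma or epithelium. Wild-type C57BL/6 mice aged 7 weeks were used, and leukocytes, taken as live CD45+ cells, were sorted after the adrenal glands had been digested with Liberase and DNase, and their RNA was sequenced cell by cell in droplets. There was 1 library from females and 1 from males, the number of animals behind each was not given in the sources used here, and neither group carried a transgene or received a treatment. With 1 library per sex there is no replicate check and no test of a difference between the sexes. Sex, animal and library cannot be told apart.

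Igf1, insulin-like growth factor 1, signals through the receptor tyrosine kinase Igf1r and circulates bound to the proteins of the Igfbp genes. Vegfa acts on blood endothelium through Kdr and Flt1, Vegfb binds Flt1, and Pdgfb acts on pericytes and smooth muscle through Pdgfrb. Hbegf is made as a membrane protein that proteases shed and that binds Egfr. Grn encodes progranulin, which is secreted and also carried to lysosomes, where it is cut into granulins. Osm is a cytokine of the interleukin-6 family that signals through Il6st with Osmr or Lifr, and Adm encodes adrenomedullin, a vasodilator peptide first isolated from a tumour of adrenal chromaffin cells, whose receptor is made of Calcrl and a Ramp protein. Steroid-producing adrenal cells lie against a dense capillary bed, and macrophages and other leukocytes sit among them.

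The female library held 16218309 unique molecular identifiers (UMIs, 1 per captured transcript) over 3963 barcodes and the male library 9512670 over 2685, and 3693 and 2450 cells were kept. Cells were placed in classes by panels of marker genes that hold none of the 8 factors. There were 858 female and 915 male adrenal gland macrophages (AGMs), 230 and 129 monocytes, 2084 and 1026 lymphocytes, 95 and 69 dendritic cells, 45 and 49 neutrophils, 24 and 5 mast cells or basophils, and 31 and 34 endothelial cells that remained in the sort. The labels of the libraries shared 2 barcodes. The macrophage panel stood at 47056 and 33743 counts per 1000000 UMIs (CPM) in AGMs and at 389 and 374 CPM in lymphocytes, and all 9 endothelial markers were found in the endothelial cells, at a summed 8363 and 9093 CPM. Markers of the adrenal cortex, which a CD45+ sort should remove, summed to 216 and 188 CPM in AGMs, 19.0 and 20.3 CPM in lymphocytes and 2971 and 780 CPM in endothelial cells.

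Transcripts of the factors were counted over the whole of each library before they were divided by class. Grn gave 3440 female and 2876 male UMIs, Pdgfb 679 and 540, Igf1 627 and 552, Vegfb 182 and 142, Osm 181 and 119, Hbegf 54 and 39, Vegfa 46 and 46, and Adm 26 and 24. Statements on Vegfa, Hbegf and Adm therefore rest on few molecules. Levels are given below in CPM of the UMIs summed over a class, female value before male value, each with an exact Poisson 95% interval in parentheses. Ratios carry exact conditional binomial 95% intervals. All these intervals cover counting error only, since cells of 1 library are not replicates.

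Of the 8 factors, Igf1 had the largest share of its UMIs in macrophages. Female AGMs held 567 Igf1 UMIs, which is 171 CPM (157 to 185), and male AGMs 508, which is 161 CPM (147 to 176). AGMs held 90.4% and 92.0% of all Igf1 UMIs of their libraries. Lymphocytes held 18 and 6 UMIs, at 2.04 and 1.43 CPM, and monocytes 1 and 0. Of the female AGMs 31.5% carried an Igf1 UMI, and of the male AGMs 24.9%, at a median of 3382 and 2536 UMIs per cell, against 0.720% and 0.487% of lymphocytes, whose medians of 3630 and 3693 were higher. When every cell was drawn down to 1000 UMIs, the shares in AGMs were 15.9% and 15.5%. Igf1 in AGMs was 83.7 times the lymphocyte level in females (52.5 to 142) and 113 times in males (51.5 to 309). The lymphocyte level was 1.19% and 0.886% of the AGM level, and that of the macrophage panel in lymphocytes 0.826% and 1.11%. In the order of classes, AGMs came first in both libraries. In males the endothelial cells, at 69.6 CPM from 5 UMIs (22.6 to 162), had an interval that overlapped that of AGMs, and the 5 mast cells or basophils, with 0 UMIs, were too few to be placed. When cells were classed by graph clusters instead of panels, male endothelial cells came first at 177 CPM (113 to 263) against 165 CPM (151 to 180) in AGMs, within counting error.

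Grn was highest among myeloid cells. It stood at 744 CPM (715 to 774) in female and 736 CPM (707 to 767) in male AGMs, and 77.0% and 75.6% of AGMs held a UMI. In monocytes the level was 362 CPM (321 to 407) and 403 CPM (346 to 468), below AGMs in both libraries with intervals that did not overlap. Dendritic cells stood at 128 and 159 CPM and endothelial cells, in which the macrophage panel summed to 2145 and 2005 CPM, at 149 CPM (79.4 to 255) and 334 CPM (214 to 497). The part of macrophage transcripts in that endothelial level was not tested. Neutrophils held 80.3 CPM (29.5 to 175) and 184 CPM (103 to 303), within the counting error of dendritic cells. Lymphocytes held 26.0 and 23.8 CPM, and AGMs exceeded them 28.7-fold in females (25.03 to 33.0) and 31.0-fold in males (25.3 to 38.2). The small group of plasmacytoid dendritic cells had Grn at 1699 CPM in females (54 UMIs in 11 cells, 1276 to 2217) and 856 CPM in males (12 UMIs in 5 cells, 442 to 1495), with the female interval above that of AGMs and the male one overlapping it. AGMs supplied 71.8% and 80.7% of all Grn UMIs and monocytes 8.17% and 6.15%.

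Pdgfb was found in AGMs, patrolling monocytes, natural killer (NK) cells, endothelial cells and dendritic cells. In AGMs it stood at 97.6 CPM (87.3 to 109) and 108 CPM (96.7 to 120), and 25.9% and 25.2% of the cells held a UMI. Nonclassical monocytes, which patrol vessel walls, had 162 CPM (19 UMIs, 97.4 to 253) and 128 CPM (16 UMIs, 73.2 to 208), overlapping AGMs. Classical monocytes had 13.4 and 19.9 CPM from 8 and 5 UMIs. The classical to nonclassical ratio was 0.0829 (0.0314 to 0.198) in females and 0.155 (0.0444 to 0.443) in males, far apart in both libraries despite the small numbers. Dendritic cells held 15 and 7 UMIs, at 35.5 CPM in females (19.9 to 58.6), overlapping female endothelial cells. Endothelial cells had 57.4 CPM (5 UMIs, 18.6 to 134) and 83.6 CPM (6 UMIs, 30.7 to 182), overlapping AGMs. With graph clusters the male endothelial level was 118 CPM (67.5 to 192) against 112 CPM (100.5 to 124) in AGMs, so that the order there turned within counting error.

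NK cells held 174 female and 87 male Pdgfb UMIs, a level of 57.6 CPM (49.4 to 66.9) and 58.4 CPM (46.8 to 72.1), and T cells stood at 14.0 and 14.5 CPM. B cells held 4 and 1 UMIs, at 2.34 and 1.43 CPM. NK cells exceeded T cells 4.12-fold in females (2.94 to 5.90) and 4.04-fold in males (2.53 to 6.71). Pdgfb was the only factor past 2-fold between these classes, of 4 female and 2 male factors with at least 50 UMIs in the pair, where 8.94% and 8.39% of all genes with that many UMIs were. Of all Pdgfb UMIs, AGMs held 47.7% and 63.0% and NK cells 25.6% and 16.1%. The lymphocyte level of Pdgfb was 28.3% and 28.5% of that in AGMs, where the macrophage panel stood at 0.826% and 1.11%. Neutrophils held no UMI, which at their depth leaves an upper limit of 49.4 and 45.1 CPM. Igf1, Grn and Pdgfb, at a ratio of 3.53 (2.98 to 4.18) and 3.51 (2.86 to 4.34), were the 3 of 5 factors with at least 50 UMIs that stood past 2-fold between AGMs and lymphocytes, where 32.1% and 31.3% of all genes did. With 5 factors, this count cannot be set apart from those shares.

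Within NK cells, Pdgfb differed between the cells with Eomes, Klra4, Klra8 and Itgam, genes of circulating NK cells, and those with Itga1, Cxcr6, Xcl1 and Tmem176a, genes of tissue-resident type 1 innate lymphocytes. This division was chosen after values had been seen. The level was 69.8 against 40.7 CPM in females, a ratio of 1.71 (1.198 to 2.48), and 63.7 against 45.2 CPM in males, a ratio of 1.41 (0.846 to 2.38) whose interval includes 1. Osm went the same way, at 17.8 against 5.94 CPM in females (ratio 3.00, 1.25 to 8.24) and 14.7 against 8.07 CPM in males (1.82, 0.548 to 6.92). Hbegf had a ratio of 0.350 in females (0.111 to 0.955), and in males all 5 UMIs lay in the second group. Vegfa gave 10 against 0 UMIs in females, with a lower limit of 1.96 for the ratio, and 8 against 2 in males (4.05, 0.808 to 39.1). Grn ran in opposite directions, with a ratio of 1.69 in females (0.878 to 3.39) and 0.470 in males (0.223 to 0.938).

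**Figure D1:**
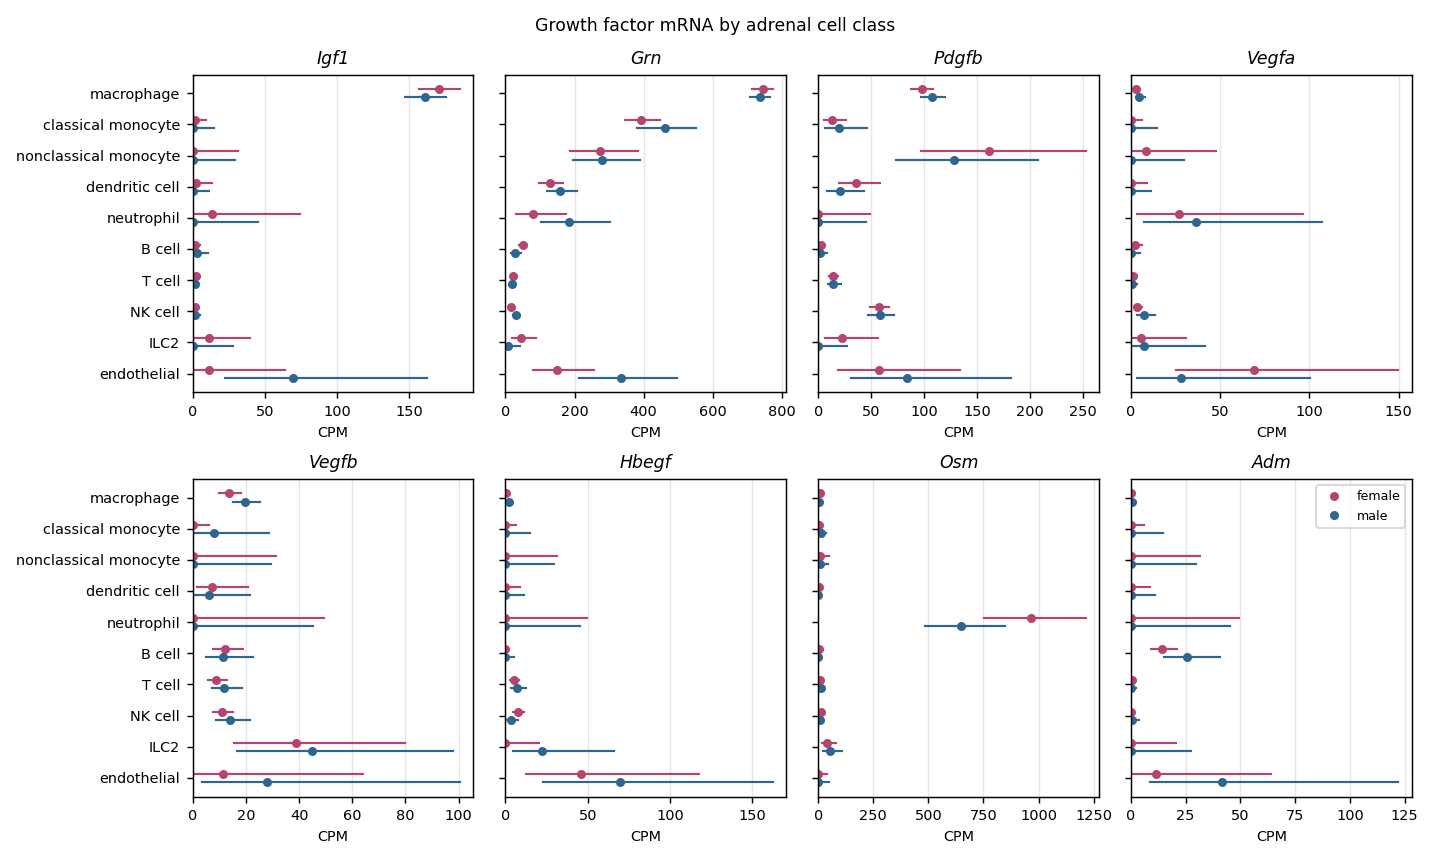
Level of each factor in CPM by cell class, a panel and scale per factor, with a point for the female and the male library and lines giving exact Poisson 95% intervals that cover counting error only. Igf1 is highest in AGMs at 171 and 161 CPM, Pdgfb also stands in NK cells at 57.6 and 58.4 CPM, Osm is highest in neutrophils at 964 and 649 CPM, and Adm is found in B cells at 14.0 and 25.8 CPM.

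Both factors of the vascular endothelial growth factor family had few UMIs, spread over several classes. Vegfb, which in other tissues is best known from muscle and fat, gave 45 and 62 UMIs in AGMs, a level of 13.6 CPM (9.89 to 18.1) and 19.7 CPM (15.1 to 25.2), and stood at 11.1 CPM (9.02 to 13.5) and 14.7 CPM (11.3 to 18.9) in lymphocytes. The ratio of AGMs to lymphocytes was 1.22 (0.838 to 1.75) and 1.33 (0.922 to 1.93). Both intervals include 1. B, T and NK cells lay between 8.78 and 14.1 CPM and could not be ordered. Type 2 innate lymphoid cells (ILC2) had 38.7 CPM (7 UMIs, 15.6 to 79.8) and 45.0 CPM (6 UMIs, 16.5 to 97.9), above T cells by 4.41-fold and 3.77-fold, with level intervals that overlapped in males. The highest female level was in mast cells or basophils, at 99.6 CPM from 7 UMIs in 24 cells (40.1 to 205), with an interval above those of AGMs and lymphocytes, and the 5 male cells of that class held none. Monocytes had 0 and 3 Vegfb UMIs, dendritic cells 3 and 2, and neutrophils none.

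Vegfa, the main factor for blood vessel growth, had 46 UMIs in each library. AGMs held 9 and 15 UMIs, at 2.71 CPM (1.24 to 5.15) and 4.76 CPM (2.66 to 7.85), in 1.05% and 1.53% of cells. Lymphocytes held 20 and 13 UMIs at 2.27 and 3.09 CPM, so that AGMs and lymphocytes did not differ beyond counting error. NK cells held 3.31 and 7.39 CPM. Neutrophils had 26.8 CPM (2 UMIs, 3.24 to 96.7) and 36.7 CPM (3 UMIs, 7.57 to 107), the latter the highest male class. Their ratio to AGMs was 9.87 (1.04 to 47.7) and 7.72 (1.43 to 27.3). The highest female value was 68.8 CPM in endothelial cells, from 6 UMIs in 2 cells, and 5 of these UMIs lay in 1 cell. Those 2 cells also held 237 UMIs of adrenal cortex markers, against 22 in the other 29 endothelial cells. In the male library, 11 Vegfa UMIs at 44.3 CPM lay in cells of no class, and the 6 cells that held them carried 213 cortex UMIs against 29 in the other 127 such cells. The part of cortical transcripts in these Vegfa counts was not tested.

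The 5′ sequence of a gene can be set beside these levels. Entries were available for 5 of the 8 genes. Those of Adm, Vegfa and Vegfb are shown because their 250 bases before the annotated start lie outside annotated exons of the same strand. These genes also differ in where their few transcripts were found. Exons on the other strand were not checked. The sequences are from RefSeq, assembly GRCm38.p6, written 5′ to 3′ on the strand of the gene. They are Adm at chr7:110627407-110627656 on the plus strand, Vegfa at chr17:46032378-46032627 on the minus strand and Vegfb at chr19:6987652-6987901 on the minus strand. Capitals mark matches to the motifs searched.
Adm: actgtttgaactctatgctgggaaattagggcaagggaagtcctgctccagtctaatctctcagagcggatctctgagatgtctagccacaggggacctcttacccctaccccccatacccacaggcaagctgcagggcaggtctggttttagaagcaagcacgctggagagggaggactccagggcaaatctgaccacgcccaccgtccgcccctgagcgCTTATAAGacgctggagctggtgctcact
Vegfa: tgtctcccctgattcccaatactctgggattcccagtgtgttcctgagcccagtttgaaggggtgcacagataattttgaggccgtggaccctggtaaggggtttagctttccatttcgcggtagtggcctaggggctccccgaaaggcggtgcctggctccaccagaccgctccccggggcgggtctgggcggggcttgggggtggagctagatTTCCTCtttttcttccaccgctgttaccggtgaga
Vegfb: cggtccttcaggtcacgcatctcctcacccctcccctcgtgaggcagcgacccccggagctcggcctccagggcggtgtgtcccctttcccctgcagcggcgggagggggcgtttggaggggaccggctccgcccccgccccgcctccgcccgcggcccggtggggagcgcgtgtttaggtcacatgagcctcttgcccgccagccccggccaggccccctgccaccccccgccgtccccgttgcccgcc

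Searched on both strands were CACGTG (E-box), GAGGAA (core of the PU.1 site), TGA and TCA parted by any 1 base (AP-1), ACGTG (hypoxia response core, which the E-box contains), the NF-kB site, TTCNNNGAA (STAT), TATAAG (a form of the box found in many core promoters) and TGACGTCA (cyclic AMP response element). Adm held TATAAG on both strands in overlapping letters, 29 and 27 bases before the start, as do 6.65% of 32851 promoters of the same length on either strand. Vegfa held GAGGAA on the reverse strand 35 bases before the start, found in 23.3% of promoters. A further Vegfa entry, at chr17:46025164-46025413, overlaps annotated exons and is not shown, and it held ACGTG 211 bases before its start, as do 16.6% of promoters. The Igf1 and Grn entries also overlap annotated exons and are not shown in full. Igf1 held GAGGAA 60 bases before its start and the AP-1 motif, found in 6.75% of promoters, 37 bases before it. Grn held GAGGAA 176 and 164 bases before its start. Vegfb held none of the 8. The upstream bases of Vegfb were 76.4% G or C with 26 CpG dinucleotides, those of Vegfa 59.2% with 11 and those of Adm 56.8% with 7, against a median of 52.4% and 6. These are descriptions of letters and not of bound sites.

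Osm, which drives stromal and endothelial responses in inflammation, was highest in neutrophils. Neutrophils had 964 CPM in females (72 UMIs, 754 to 1213) and 649 CPM in males (53 UMIs, 486 to 848), and 42.2% and 34.7% of them held a UMI at a median of 1649 and 1595 UMIs per cell. The same transcript was found in 2.21% and 1.31% of the deeper AGMs, at 6.33 and 5.07 CPM. The neutrophil to AGM ratio was 152 (92.6 to 261) and 128 (72.0 to 240). Neutrophils made up 1.22% and 2.00% of the cells and held 39.8% and 44.5% of all Osm UMIs, with 54.2% and 62.3% of the neutrophil UMIs in 5 cells. Female mast cells or basophils held 5 Osm UMIs, at 71.2 CPM (23.1 to 166), and male ones none in 5 cells. ILC2 stood at 38.7 CPM (15.6 to 79.8) and 52.5 CPM (21.1 to 108), overlapping the female mast cells or basophils, and were 6.27-fold (2.23 to 15.6) and 4.40-fold (1.56 to 10.9) above T cells. T cells stood at 6.18 and 11.9 CPM and NK cells at 11.3 and 10.1 CPM, and lymphocytes together held 38.7% and 35.3% of Osm UMIs. Immediate early genes, which tissue digestion can raise, summed to 31504 and 39947 CPM in neutrophils against 1261 and 1779 CPM in AGMs and 696 and 851 CPM in lymphocytes. Their part in the Osm level was not tested.

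Hbegf, a ligand of the epidermal growth factor receptor, was close to the limit of detection in macrophages. AGMs held 1 and 6 UMIs, at 0.301 CPM (0.00763 to 1.68) and 1.90 CPM (0.698 to 4.14), and monocytes held none. Lymphocytes held 45 and 21 UMIs, at 5.10 CPM (3.72 to 6.83) and 5.00 CPM (3.09 to 7.64), and the ratio of AGMs to lymphocytes was 0.0591 (0.00146 to 0.346) and 0.381 (0.126 to 0.976). Without the 5 cells with the most Hbegf UMIs in each class the male ratio was 0.121. Those 5 cells held most of the 6 male AGM UMIs, so this fall follows from their removal. T cells stood at 5.20 and 6.91 CPM, NK cells at 7.62 and 3.36 CPM, and B cells held no UMI. Of all Hbegf UMIs, lymphocytes held 83.3% and 53.8%. Endothelial cells had 45.9 CPM (4 UMIs, 12.5 to 117) and 69.6 CPM (5 UMIs, 22.6 to 162), above lymphocytes in both libraries.

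B cells held 24 of the 26 female and 18 of the 24 male Adm UMIs, or 92.3% and 75.0%. The level was 14.0 CPM (8.98 to 20.9) and 25.8 CPM (15.3 to 40.8), from 14 of 513 female and 8 of 265 male B cells. AGMs held 0 and 2 UMIs, T cells 1 and 0, and NK cells 0 and 1. Endothelial cells held 1 and 3, which in so small a class is 11.5 CPM (0.290 to 63.9) and 41.8 CPM (8.62 to 122), overlapping B cells in both libraries. The Adm-positive B cells were few and deep (median depth 9377.5 and 9631.5 UMIs, compared with 2160 and 1727 for the other B cells), and 58.3% and 77.8% of the UMIs came from 5 cells. All 14 female and all 8 male cells held Mzb1, a chaperone gene of marginal zone and innate-like B cells, against 60.1% and 52.1% of the other B cells. Zcwpw1 was found in 12 of 14 and 5 of 8 of them, against 8.62% and 3.11%. Fcer2a, the CD23 gene of follicular B cells, was found in none of these deeper cells, against 34.1% and 36.6% of the other B cells. Ahnak was found in 14 of 14 and 6 of 8 of them, against 30.7% and 16.7% of the rest. Cr2 was found in 0 of 14 and 1 of 8, against 19.2% and 15.2%, and Ighd in 10 of 14 and 4 of 8, against 71.3% and 74.7%. The depths differ, so these shares were also taken from 1000 UMIs drawn from every B cell, which left out 17 and 14 shallower cells, none with Adm. Zcwpw1 was then found in 5 of 14 (35.7%, 12.8 to 64.9) and 2 of 8 Adm-positive cells (25.0%, 3.19 to 65.1), against 4.98% (3.22 to 7.32) and 2.47% (0.911 to 5.30), with overlapping intervals in males. Ahnak was found in 42.9% (17.7 to 71.1) and 62.5% (24.5 to 91.5) against 15.4% (12.3 to 18.9) and 9.05% (5.76 to 13.4), overlapping in females. Mzb1 was found in 7 of 14 (23.04 to 76.96%) and 7 of 8 (47.3 to 99.7%) against 36.3% (32.01 to 40.8) and 32.5% (26.7 to 38.8), likewise overlapping in females. Fcer2a remained at 0 of 14 and 0 of 8, against 20.95% and 24.7%, where 0 cells allow up to 23.2% and 36.9%. Ighd was found in 3 of 14 (21.4%, 4.66 to 50.8) and 2 of 8 (25.0%, 3.19 to 65.1). The other B cells stood at 53.1% (48.5 to 57.6) and 59.7% (53.2 to 65.9) for Ighd, overlapping in both libraries. Cr2 was found in 0 of 14 and 0 of 8, against 11.4% and 9.47%. When B cells were divided after these values had been seen, the cells with the Mzb1, Zcwpw1 and Ahnak markers held 24 and 15 Adm UMIs (26.1 and 50.9 CPM), those with the Ighd, Fcer2a and Cr2 markers held none, and 3 male UMIs lay in undivided cells. The markers of this division are those compared above, so it is a description only. Divided by the drawn UMIs instead, the first cells held 16 and 17 Adm UMIs at 21.04 CPM (12.03 to 34.2) and 69.7 CPM (40.6 to 112), the second none (up to 7.47 and 15.7 CPM), and undivided cells 8 and 1.

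**Figure D2:**
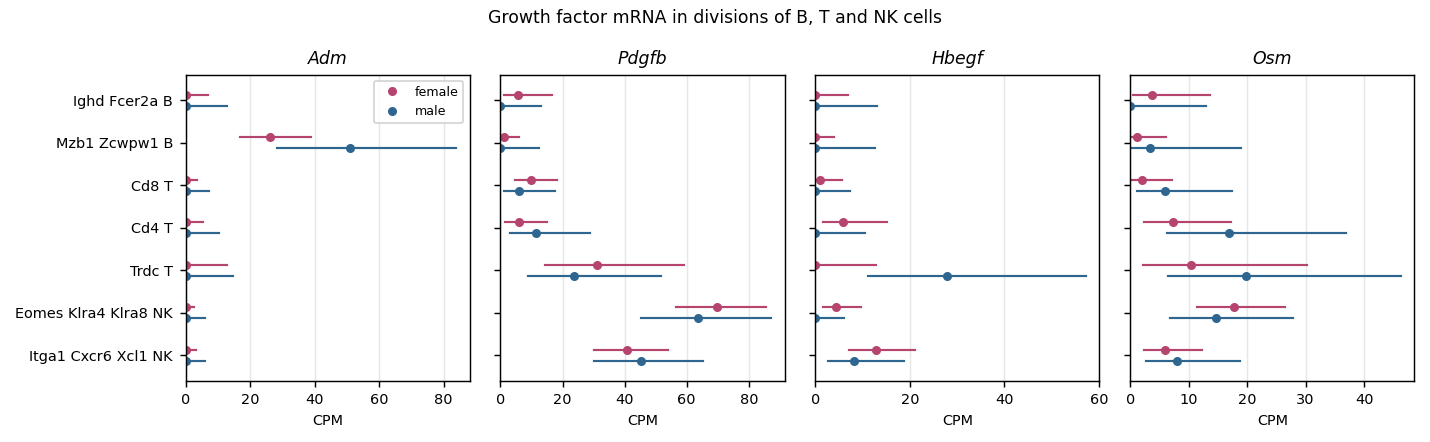
Level in CPM of Adm, Pdgfb, Hbegf and Osm in divisions of B, T and NK cells, named by marker genes, for both libraries, with exact Poisson 95% intervals that cover counting error only. Adm lies in the Mzb1, Zcwpw1 and Ahnak division of B cells at 26.1 and 50.9 CPM, and the interval of the ratio of Pdgfb between the Eomes and Itga1 divisions of NK cells excludes 1 in females and includes it in males.

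The macrophage factors were then compared across AGM subsets. Lyve1-high AGMs, called by at least 3 of 6 markers of vessel-associated macrophages, numbered 42 and 103, or 4.90% and 11.3% of AGMs. Aldh1a2-high AGMs, called by at least 3 of 6 markers of their own, numbered 94 and 113. A cell with that many markers of either subset also passed as a macrophage, so it need not have met the requirement of the macrophage panel. The other AGMs were split by the UMIs of Cd74, H2-Eb1, H2-Ab1 and H2-Aa in a draw of 1000, with cells of 10 or fewer called MHC class II low. There were 175 female and 23 male low cells and 483 and 553 high cells. The male low group is small, so values within it move with a few cells.

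Igf1 was highest in the Lyve1-high subset. Its level there was 672 CPM (524 to 849) in females and 727 CPM (623 to 844) in males, and 61.9% and 73.8% of the cells held a UMI although they were shallower than other AGMs, with a median of 1864 and 1984 UMIs. Other AGMs outside both marked subsets had 165 CPM (151 to 181) and 127 CPM (113 to 142). The ratio was 4.06 (3.12 to 5.23) and 5.74 (4.73 to 6.93). The median mitochondrial share was 6.56% and 6.17% in Lyve1-high AGMs against 3.08% and 2.91% in other AGMs, and with only cells of at most 5% the ratio was 3.46 (1.996 to 5.63) and 4.56 (3.38 to 6.06). Aldh1a2-high AGMs had 64.1 CPM (40.6 to 96.1) and 51.4 CPM (33.2 to 75.8), with 91.3% and 68.0% of the UMIs in 5 cells. Their ratio to other AGMs was 0.387 (0.243 to 0.588) and 0.405 (0.258 to 0.609). Without the 5 highest cells of each group both ratios were lower, which follows from the share of UMIs those cells held and is no further support. Lyve1-high and Aldh1a2-high intervals lay far apart in both libraries.

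Grn showed the same order with smaller steps. Lyve1-high AGMs had 1364 CPM (1149 to 1607) and 2027 CPM (1850 to 2216), and the ratio to other AGMs was 1.80 (1.51 to 2.13) and 3.12 (2.81 to 3.45). Aldh1a2-high AGMs had 446 CPM (379 to 520.4) and 528 CPM (465 to 597), with ratios of 0.588 (0.498 to 0.691) and 0.812 (0.709 to 0.927). Pdgfb ran the other way in the Lyve1-high subset, at 19.2 CPM (2 UMIs) and 42.0 CPM (10 UMIs), with ratios of 0.176 (0.0213 to 0.643) and 0.331 (0.157 to 0.616). In Aldh1a2-high AGMs the Pdgfb ratios were 0.307 (12 UMIs, 0.157 to 0.544) and 0.355 (22 UMIs, 0.219 to 0.548). Without the 5 highest cells, 3 and 12 of these UMIs were left and the ratios were 0.0985 (0.0202 to 0.291) and 0.227 (0.116 to 0.403). Of the factors with at least 50 UMIs in a pair, 2 of 3 in females and 3 of 4 in males lay past 2-fold between Lyve1-high and other AGMs, where 29.2% and 26.8% of all genes did, and 2 of 3 and 3 of 4 between Aldh1a2-high and other AGMs, where 22.8% and 23.6% did. The factor counts are too small to be set apart from those shares. In female Aldh1a2-high AGMs the summed markers of B cells stood at 9929 CPM, against 109 CPM in male ones and 292 CPM in female MHC class II high AGMs, and the part of this in the ratios was not tested.

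MHC class II low AGMs had more Grn than high ones in both libraries, at 1080 CPM (1008 to 1156) against 635 CPM (601 to 670.4) in females and 1393 CPM (1158 to 1660) against 603 CPM (572 to 636) in males. The ratios were 1.70 (1.56 to 1.86) and 2.31 (1.90 to 2.78). Of all genes, 2.96% in females and 20.5% in males lay past 2-fold between low and high cells, in either direction, against 0 of 3 and 2 of 4 factors. The male calls were those of Grn and Igf1, and both fell below 2-fold without the 5 highest cells, where Grn was at 1.84 (1.36 to 2.44). Grn was also at 1.86 (1.59 to 2.15) with the boundary at 20 UMIs. Pdgfb in females was lower in low cells, at 73.6 CPM (55.7 to 95.3) against 121 CPM (107 to 137), a ratio of 0.607 (0.447 to 0.812), while the male ratio of 1.37 (0.755 to 2.30) included 1. Without the 5 highest cells that male ratio lay below 1. Igf1 in females was at 148 CPM (123 to 178) against 170.03 CPM (153 to 189), a ratio of 0.873 (0.700 to 1.08). In males it was at 348 against 114 CPM, but 5 of the 23 low cells held 83.9% of those 31 UMIs, and without them the ratio of 3.06 became 0.832. In the male low cells the Lyve1-high panel stood at 337 CPM and the endothelial panel at 427 CPM, against 66.5 and 49.98 CPM in the male high cells, and their part in these ratios was not tested.

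**Figure D3:**
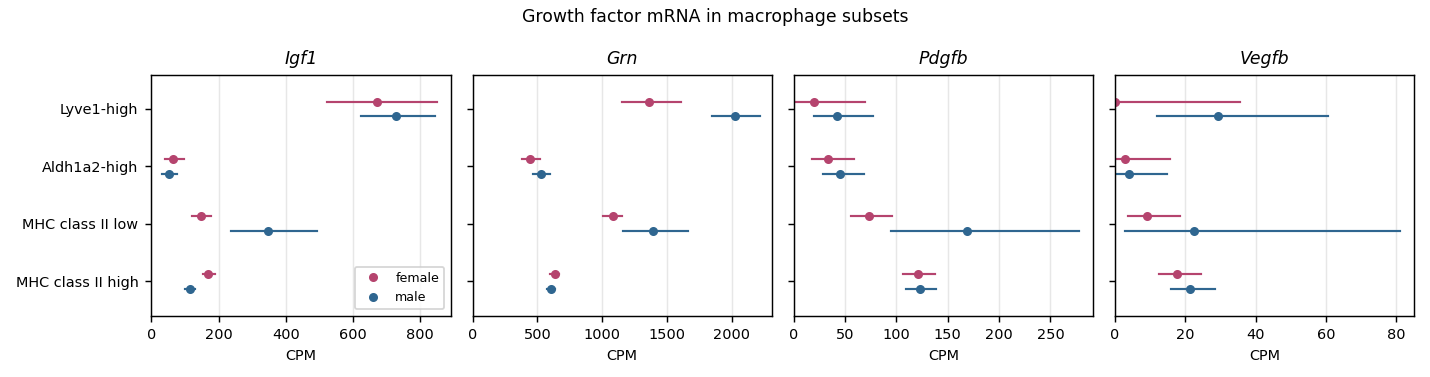
Level in CPM of Igf1, Grn, Pdgfb and Vegfb in the AGM subsets of the female and male libraries, with exact Poisson 95% intervals that cover counting error only. Igf1 stands at 672 and 727 CPM in Lyve1-high AGMs, above the remaining subsets. Pdgfb in female cells of that subset is at 19.2 CPM from 2 UMIs, within counting error of Aldh1a2-high AGMs.

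The share of the AGM output that each subset supplied follows from its level and its size. Lyve1-high AGMs supplied 12.3% (9.75 to 15.3) of AGM Igf1 UMIs in females and 34.1% (29.9 to 38.4) in males, and 5.75% and 20.8% of AGM Grn UMIs. MHC class II low AGMs supplied 20.3% and 6.10% of Igf1 and 33.9% and 5.34% of Grn. MHC class II high AGMs supplied most of the rest, with 60.8% and 50.2% of Igf1, 52.1% and 58.2% of Grn and 75.9% and 81.2% of Pdgfb. The Igf1 level of Lyve1-high AGMs was within counting error between the libraries, while their share of AGMs was 4.90% and 11.3%.

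**Figure D4:**
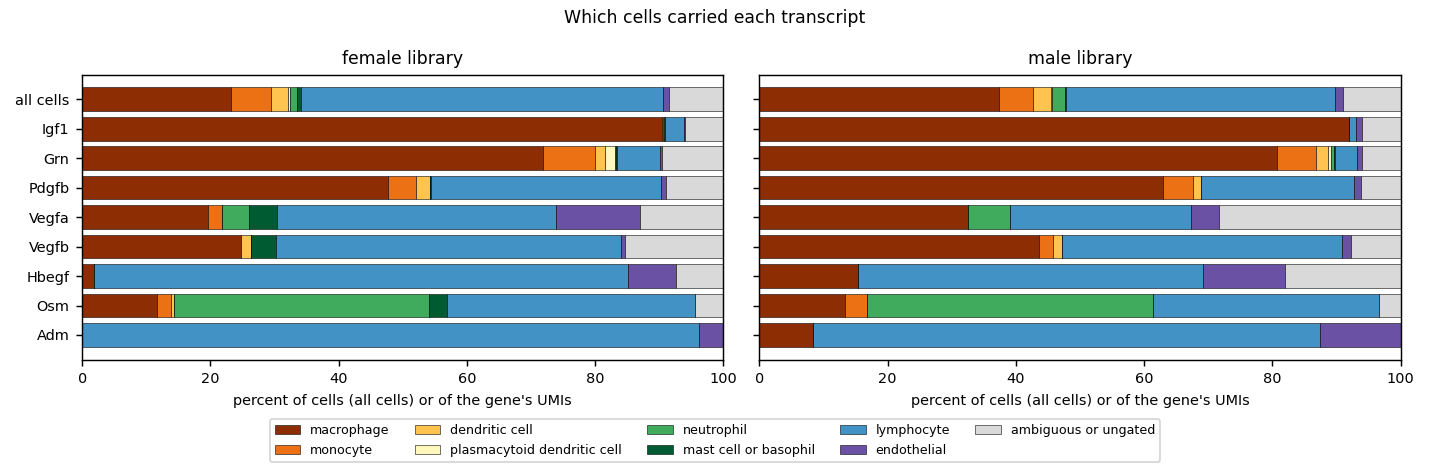
Share in percent of each factor's UMIs that came from each cell class, for the female and male libraries, below a bar with the classes' shares of all cells. AGMs supply 90.4 and 92.0% of Igf1, neutrophils 39.8 and 44.5% of Osm, and lymphocytes 83.3 and 53.8% of Hbegf.

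Single AGMs rarely showed several factors. At 1000 drawn UMIs per cell, 41.8% of 782 female and 42.0% of 781 male AGMs held a UMI of none of the 8, 44.2% and 41.5% of 1, 12.5% and 15.5% of 2, and 1.41% and 1.02% of 3. No drawn AGM held 4 or more. These shares count cells with a captured transcript at this depth and not cells that express a gene.

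At the main settings, no factor in whole AGMs differed between the female and male libraries beyond counting error. The female to male ratio was 1.06 for Igf1 (0.939 to 1.197), 1.01 for Grn (0.955 to 1.07), 0.905 for Pdgfb (0.775 to 1.06), 0.689 for Vegfb (0.459 to 1.03), 1.25 for Osm (0.620 to 2.56) and 0.570 for Vegfa (0.220 to 1.39). Each interval includes 1, as do those of Hbegf and Adm. Hbegf stood at 0.301 and 1.90 CPM, from 1 and 6 UMIs. For Vegfa, Vegfb, Osm, Hbegf and Adm the intervals are wide and do not show that the levels were alike. With a mitochondrial ceiling of 5% the intervals of Grn, at 1.10 (1.03 to 1.17), and Vegfb, at 0.568 (0.343 to 0.924), lay on opposite sides of 1, and without the 5 highest cells Vegfb was at 0.620 (0.390 to 0.973). At the ceiling of 1.2%, which kept few cells, Pdgfb was at 0.610 (0.240 to 1.38) and Vegfb at 1.03 (0.0932 to 7.19). None of the 4 factors with at least 50 UMIs in AGMs lay past 2-fold, and 1.65% of 8472 genes did. In lymphocytes none of 5 factors did, where 0.729% of genes did.

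Within subsets, some ratios had intervals on 1 side of 1. Igf1 in MHC class II high AGMs, 170.03 CPM in the female and 114 CPM in the male library, had a ratio of 1.49 (1.27 to 1.76), where 0 of 4 factors and 0.929% of genes lay past 2-fold. Over all AGMs outside both marked subsets, which include those cells, Igf1 was at 1.30 (1.13 to 1.51) and Grn, at 758 against 650.2 CPM, at 1.17 (1.09 to 1.24). Grn ran the other way in 2 subsets. In Lyve1-high AGMs it had a ratio of 0.673 (0.554 to 0.813), where 0 of 2 factors and 2.64% of genes did. With a mitochondrial ceiling of 5% it was 0.804 and its interval included 1 (0.577 to 1.10). In MHC class II low cells, at 1080 against 1393 CPM, it was 0.776 (0.642 to 0.944), and without the 5 highest cells 0.914 (0.686 to 1.24). In the same low cells 2 of 3 factors were past 2-fold, Igf1 at 0.426 and Pdgfb at 0.437, where 12.3% of all genes were, and without the 5 highest cells the Igf1 ratio became 1.42 and that of Pdgfb 0.827 (0.330 to 2.67). Outside AGMs, Grn had ratios of 1.77 in B cells (1.08 to 3.04) and 0.570 in NK cells (0.375 to 0.869), and Osm 1.49 in neutrophils (1.03 to 2.16). None of these 3 passed 2-fold, and 1.57%, 0.944% and 2.5% of genes in those classes did. Grn in endothelial cells had a ratio of 0.446 (0.209 to 0.912) from 13 and 24 UMIs, too few for a call.

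**Figure D5:**
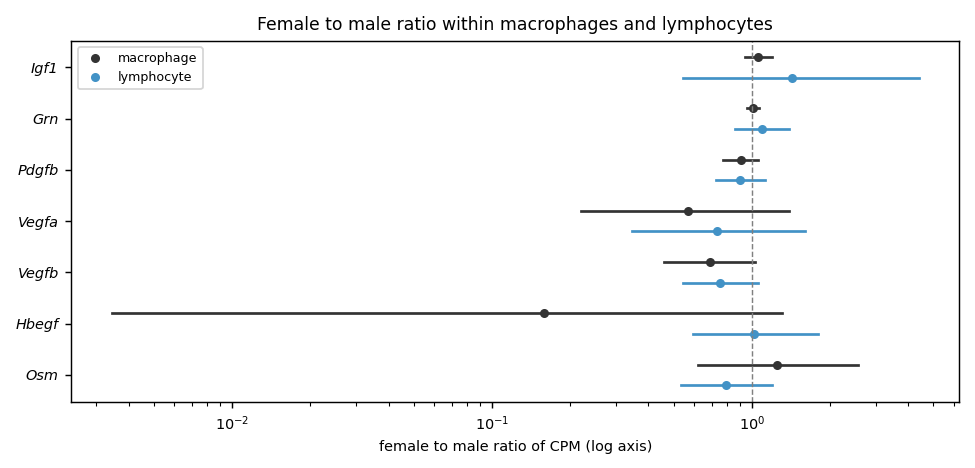
Female to male ratio (logarithmic axis) of 7 factors in AGMs and in lymphocytes, with exact conditional binomial 95% intervals that cover counting error only. Each interval crosses the dashed line at 1, and Adm, with 0 UMIs in female AGMs, is not drawn.

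Genes with a like pattern were sought over 28 profiles, the classes and subsets of both libraries, which share libraries and cells. Igf1 was most like Slco2b1 (r = 0.943), C1qc (0.940) and Scamp5 (0.934), and C1qc is in the macrophage panel. Grn was most like Hexa (0.951), Tmem106a (0.943) and Rtn4 (0.930). Pdgfb was most like Gpaa1 (0.815), Itgav (0.777) and Tcf7l2 (0.770), and Vegfb most like Rnf219 (0.834), Faap24 (0.832) and Chchd7 (0.812). Osm was most like Gm19696 (0.921), S100a8 (0.901) and B230208H11Rik (0.901), and S100a8 is in the neutrophil panel. Among the factors themselves, r was 0.775 between Igf1 and Grn, 0.532 between Grn and Pdgfb and 0.435 between Igf1 and Pdgfb. Osm had an r of -0.421 with Pdgfb, -0.213 with Grn and -0.203 with Igf1. Vegfa, Hbegf and Adm had too few UMIs for such a profile.

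The genes that receive or modify these factors were followed in the same cells. Of 24 receptor genes, 15 reached 50 CPM in some class of both libraries, 13 of them in endothelial cells, 5 in AGMs, 4 in monocytes and 0 in the lymphocyte class. Endothelial cells had the Vegf receptors Kdr at 1767 and 2451 CPM, Flt1 at 1044 and 1699 CPM and Flt4 at 390.1 and 376 CPM, and the adrenomedullin receptor parts Calcrl at 516 and 515 CPM and Ramp2 at 574 and 766 CPM. They also had Igf1r at 103 and 139 CPM, Il6st at 275 and 668 CPM and Osmr at 34.4 and 55.7 CPM. Neutrophils held Igf1r at 455 CPM (315 to 636) and 612 CPM (454 to 807), with intervals above those of endothelial cells. In AGMs the receptor genes past that level were Lifr (181 and 168 CPM), Nrp1, a co-receptor of Vegfa (114 and 117 CPM), Tnfrsf1a, Tnfrsf1b and Ramp1. The Pdgf receptors Pdgfra and Pdgfrb and the Egfr family did not reach it in both libraries in any class, which is a statement on sorted CD45+ cells.

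Of 12 partner genes, 9 reached that level. AGMs held Psap, a lysosomal partner of progranulin, at 3953 and 4589 CPM, Adam17, which sheds Hbegf, at 96.4 and 103 CPM, and the Igf1-binding Igfbp4 at 61.8 and 172 CPM. In Lyve1-high AGMs, where Igf1 was highest, Igfbp4 stood at 932 CPM (755 to 1137) and 1522 CPM (1369 to 1687). Endothelial cells held Igfbp7 at 998 and 1086 CPM. Neutrophils held Slpi, which shields progranulin from cleavage, at 3787 and 2852 CPM. Of 17 other genes of the same factor families only Il6 reached 50 CPM in both libraries, in mast cells or basophils from 4 and 1 UMIs. Of 12 immediate early genes, 11 did.

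In GRCm38, Igf1 (ENSMUSG00000020053) lies at chr10:87858265-87937042, Grn (ENSMUSG00000034708) at chr11:102430315-102437048, Osm (ENSMUSG00000058755) at chr11:4236420-4241026 and Adm (ENSMUSG00000030790) at chr7:110627661-110629820, all on the plus strand. Pdgfb (ENSMUSG00000000489) lies at chr15:79995874-80014977, Vegfa (ENSMUSG00000023951) at chr17:46016993-46032369 and Vegfb (ENSMUSG00000024962) at chr19:6982473-6987651, all on the minus strand. All are protein-coding. Igf1, Pdgfb, Grn and Adm are overlapped on the opposite strand by Igf1os, Gm41361, Fam171a2 and Gm28863. Fam171a2 had 6 and 4 UMIs and the others none. Pdgfb is also overlapped on its own strand by Mir7213, which is not among the genes counted. Whether the counting used strand is not given in the sources used here, and without strand the reads of a gene and its antisense partner cannot be told apart.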

How the data were processed

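Adrenal CD45+ cells were measured in 1 female and 1 male droplet library. The deposited values are raw counts of UMIs per gene and cell barcode. The submitters' processing notes name Cell Ranger 4.0.0, DropletUtils 1.4.3, Seurat 3.1.0 and build mm10, and the authors removed barcodes of low quality before deposit. No barcode had fewer than 500 UMIs.

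From these counts, barcodes with at least 200 genes and at most 15% mitochondrial UMIs were kept (3817 female, 2502 male). The study's methods state a ceiling of 1.2%. Read as percent of UMIs it would have kept 327 and 359 barcodes, while those methods report many more cells after all filters. The scale of the stated ceiling remained unclear, and the alternative that bears this name is not the study's filter. Scrublet in Scanpy 1.11.5 marked 2 and 10 barcodes at its automatic threshold, which was taken as a failure. The highest-scoring 0.8% per 1000 barcodes were removed instead, 124 female and 52 male cells of those kept. Cells were then named from marker panels that hold none of the 8 genes, with 146 and 133 left ungated and 169 and 85 ambiguous ones in no class. UMIs were summed per class and library and divided by the class total (CPM). Shares of cells were also taken from 1000 UMIs drawn per cell, and AGMs under 1000 UMIs (62 female, 119 male outside the marked subsets) had no MHC class II call. A call past 2-fold needed at least 50 UMIs in the pair, and a floor of 3 UMIs marks a count of 0. For each member with at least 200 UMIs, genes of like pattern were the 3 non-members with the highest Pearson r of log2(CPM + 10), among genes at 50 CPM or more in some profile. The named genes were the 8 members and genes from the lists of receptors, partners, same families and immediate early genes at 50 CPM or more in a class of both libraries. Osmr, Pdgfra, Pdgfrb, Egfr and Pdgfc, which are below it in whole classes, and the marker genes of the B, T and NK cell divisions were named after their values were seen.

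The members, lists and panels were chosen with earlier results of these data known. Positions come from GENCODE M21, which held 32158 of the 32285 gene identifiers. The steps were tested on simulated counts. Python 3.11.15, NumPy 2.4.6, SciPy 1.17.1, pandas 2.3.3 and matplotlib 3.10.9 were used. Alternatives were other mitochondrial ceilings, gene minimums, doublet handling, draws, MHC class II boundaries and graph clusters in place of panels. Further ones were panels asking for a further marker, scaling by the median ratio and leaving out the 5 highest cells. The last took 5 cells from each class of a ratio whatever its size, so it weighs more on small classes and sparse genes. B cell markers in drawn UMIs were added after seeing the data.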

Additional observations from a re-analysis of the deposited data

How the results depend on the processing

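With 1 library per sex, no alternative sets a value against the spread between animals, and values of Vegfa, Hbegf and Adm rest on few UMIs. No paired analysis was possible because each sex had 1 library and no replicate to pair. Of 66 recomputed female to male ratios in AGMs 63 stayed within counting error of the reported value, as did 132 of 140 AGM to lymphocyte ratios, 28 of 32 ratios between MHC class II low and high cells, 48 of 53 between a marked subset and other AGMs and 60 of 61 female to male ratios within subsets. Ratios with a count of 0 could not be recomputed and are not in these numbers. At the 1.2% ceiling 9 AGM to lymphocyte ratios were left, against 15 with at least 500 genes. Without the 5 highest cells 7 low to high ratios were left, against 13 with the boundary at 20 UMIs. Low to high ratios were recomputed only with other boundaries and without the 5 highest cells. The ratios of marked subsets and those within subsets were likewise not run under every setting. Levels in AGMs, monocytes, lymphocytes and endothelial cells moved beyond counting error in 88 of 640 recomputations, that is in 30 of 64 without the 5 highest cells, 41 of 64 at the 1.2% ceiling and 11 of 64 at the 5% ceiling, with 6 in the other settings. Shares of cells with a UMI moved in 54 of 128, in 22 of 64 with a draw of 500 UMIs and 32 of 64 with no draw. Fewer drawn UMIs lower a share, no draw mostly raises it, and leaving out the highest cells mostly lowers a level, by construction. What moved the other values was not tested.

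With a mitochondrial ceiling of 5%, the female to male ratio of Grn in AGMs was 1.10 (1.03 to 1.17) and the male AGM to lymphocyte ratio of Adm 0.693. Lyve1-high to other AGMs was then 4.56 for male Igf1, and female Pdgfb had no UMI left in Lyve1-high AGMs. With a ceiling of 1.2%, which kept few cells, the female to male ratios were 1.03 for Vegfb and 0.610 for Pdgfb. The AGM to lymphocyte ratios were then 12.7 for male Igf1, 0.705 for male Vegfb, 4.76 for male Pdgfb, 24.9 for female Grn and 1.39 for female Osm, and that of male Osm turned to 1.76. At the main settings male Osm stood at 5.07 CPM in AGMs and 9.99 CPM in lymphocytes. The number of factors highest in AGMs among AGMs, monocytes, lymphocytes and endothelial cells was 4 in females and 3 in males. In males it became 6 at the 1.2% ceiling and 5 without the 5 highest cells. With graph clusters it became 1 (Grn stayed first, Igf1 and Pdgfb were higher in endothelial cells within counting error). The 5 cells left out took in every male endothelial cell with a UMI of Igf1, Vegfa, Hbegf or Adm.

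Without the 5 highest cells of a class, Lyve1-high to other AGMs was 2.95 for female Igf1. Aldh1a2-high to other AGMs was 0.0409 and 0.156 for Igf1 and 0.0985 for female Pdgfb. MHC class II low to high in males turned to 0.832 for Igf1 and was 0.670 for Pdgfb and 1.84 for Grn, the female to male ratio of Igf1 in low cells turned to 1.42, and male Hbegf in AGMs to lymphocytes was 0.121. With the MHC class II boundary at 20 UMIs, male Grn was 1.86. The divisions of B, T and NK cells and the ratios within subsets were added after seeing the data. Across the alternatives, Igf1 in MHC class II high AGMs kept a female to male ratio of 1.35 to 1.71.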

Other observations

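Among T cells, those with Trdc, the constant chain of the gamma delta receptor, had Pdgfb at 31.1 CPM in females against 9.96 CPM in those with Cd8 genes, a ratio of 3.12 (1.12 to 8.56). The male ratio was 3.99 (0.852 to 24.7), whose interval includes 1. The male Trdc cells also held 7 Hbegf UMIs and the female ones 0. In B cells with the Mzb1, Zcwpw1 and Ahnak markers, Grn stood at 64.2 CPM against 41.6 CPM in those with the Ighd, Fcer2a and Cr2 markers in females, a ratio of 1.54 (0.932 to 2.65). In males it stood at 57.7 against 3.52 CPM, the second from 1 UMI. These divisions were chosen after values had been seen.

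Slpi, an inhibitor of proteases that cut progranulin, had 4 UMIs in female and 398 UMIs in male AGMs, at 1.21 CPM (0.328 to 3.09) and 126 CPM (114 to 139). Of the male UMIs, 385 lay in the 23 MHC class II low cells, at 4324 CPM, against 2.23 CPM in the 553 high cells and 0 UMIs in Lyve1-high ones, so the difference between the libraries rests on that small group. The same 23 cells held Igfbp3 and Igfbp5 at 258 CPM each (164 to 388). Male endothelial cells held these genes at 668 and 2270 CPM. The endothelial panel was also higher in the 23 cells than in the male high cells, as given above, and its part was not tested.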
